A study of Boehmeria nivea with 2 samples.

Results

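The light reactions of photosynthesis were described here through 203 unigenes of 46,533 in the ramie (Boehmeria nivea) leaf assembly. A unigene is a transcript cluster built from the reads without a genome. Each of the 203 was chosen because its best Swiss-Prot protein name holds a word for a light-harvesting, photosystem, cytochrome b6-f, electron-carrier or chloroplast ATP synthase protein. The words were found in 214 names, and 11 naming a nitrite, glutamate or thioredoxin enzyme were dropped. The members comprised 52 antenna unigenes, 59 of photosystem II (PSII), 36 of photosystem I (PSI), 9 of the cytochrome b6-f complex, 23 of soluble carriers and 21 of the chloroplast ATP synthase. The remaining 3 name ferredoxin-using enzymes of other pathways. Together they covered 62 subunits or subunit families.

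The samples came from 30-day-old plants of cultivar Chuanzhu No.8, grown from cut shoots under 14 h of light. In the challenged group (CH), 2 fasted J2 larvae of the ramie moth were placed on the fourth leaf below the shoot tip. The control group (CK) was sampled in parallel. Its sample title reads mock-challenged, whereas the paper calls these plants unchallenged and describes no mock treatment. The upper 2 leaves, which the larvae had not damaged, were taken at 12, 24, 48 and 72 h from 5 plants per time point, so the samples report leaves other than the one on which the larvae were placed. RNA of the 4 times was mixed in equal parts into 1 library per group, which means that no difference below has a replicate check and that time and plant cannot be separated.

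Green leaves capture light with chlorophyll-binding antenna proteins, called LHCB around PSII and LHCA around PSI. PSII splits water with the help of the lumenal proteins PSBO, PSBP and PSBQ and passes electrons through the cytochrome b6-f complex to plastocyanin and PSI. Electrons then leave through ferredoxin and ferredoxin-NADP reductase, while the proton gradient drives the ATP synthase. The core reaction-centre proteins are encoded in the plastid, whereas the antenna and most peripheral subunits are encoded in the nucleus and imported.

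The table of CK sums to 17,800,062 reads and that of CH to 26,938,918 reads. Leaf identity was visible in both: rubisco small chain took 1.44% of CK and 0.337% of CH reads over 11 unigenes, rubisco activase 2.47% and 0.996% over 14, and chloroplast carbonic anhydrase 0.389% and 0.0479% over 7. The carbonic anhydrase sum rested largely on 1 unigene, with 61,934 of the 69,205 CK reads. By the calls defined below, 1 carbonic anhydrase unigene was lower and 1 higher in CH. No unigene carried the names SHOOT MERISTEMLESS or CLAVATA3. The 4 WUSCHEL-related unigenes took 0.0112% and 0.0115% and the 5 histone H4 unigenes 0.0358% and 0.0374%. The 4 cyclin-B unigenes took 0.00486% and 0.00608%, the 8 phloem unigenes (SUC2 and phloem protein 2) 0.0238% and 0.0310%, and the xylem cysteine proteinase 0.000562% and 0.000690%. The part of cell composition in the results below was not tested. In bulk leaf RNA, fewer photosynthetic cells and less photosynthetic RNA per cell cannot be told apart.

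The photosynthetic unigenes held a smaller share of the CH library than of the CK library in all 6 groups. Summed over the 203 members, 1,591,970 reads or 8.94% of CK compared with 1,216,304 reads or 4.52% of CH, which is 1.98-fold lower (95% exact interval 1.98 to 1.99). Intervals throughout cover counting error only. Fold values given with an interval compare shares of library reads. Of the 100 unigenes with most reads, 28 were members in CK and 15 in CH.

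A unigene was called lower or higher when the Audic-Claverie test on the reads of both libraries gave a Benjamini-Hochberg adjusted p below 0.01 over all unigenes with a read and the RPKM ratio was at least 2-fold. RPKM, the reads of a unigene divided by its length and by the depth of the library, is the scale of every log2 value given here, as CH over CK. With 1 library per group, the test speaks of these libraries and not of the treatment. Of the 195 members with at least 1 read, 40 were called lower, against a background of 4.28% of all 43,302 unigenes tested. None was called higher, against a background of 2.48%. At an unadjusted p below 0.05, 76 members had a smaller and 5 a larger share of reads in CH. No alternative test called a member higher. The median log2 ratio over the 144 members with at least 10 reads was -0.61 (quartiles -1.19 and -0.14), and 115 of them lay below 0, compared with a median of -0.02 over all unigenes with at least 10 reads. The other 59 members were too thinly read for a ratio, 8 of them with no read at all.

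The calls depended on how much 2 leaf libraries are allowed to differ. With an assumed biological coefficient of variation of 0.2 in edgeR, 20 members stayed lower (background 1.34%). With 0.4, 2 remained, a Rieske protein unigene and an LHCB1 unigene (background 0.120%). With a dispersion estimated without the group labels, 6 remained, the same 2 with PSBS and 3 ferredoxins (background 0.275%).

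**Figure D1:**
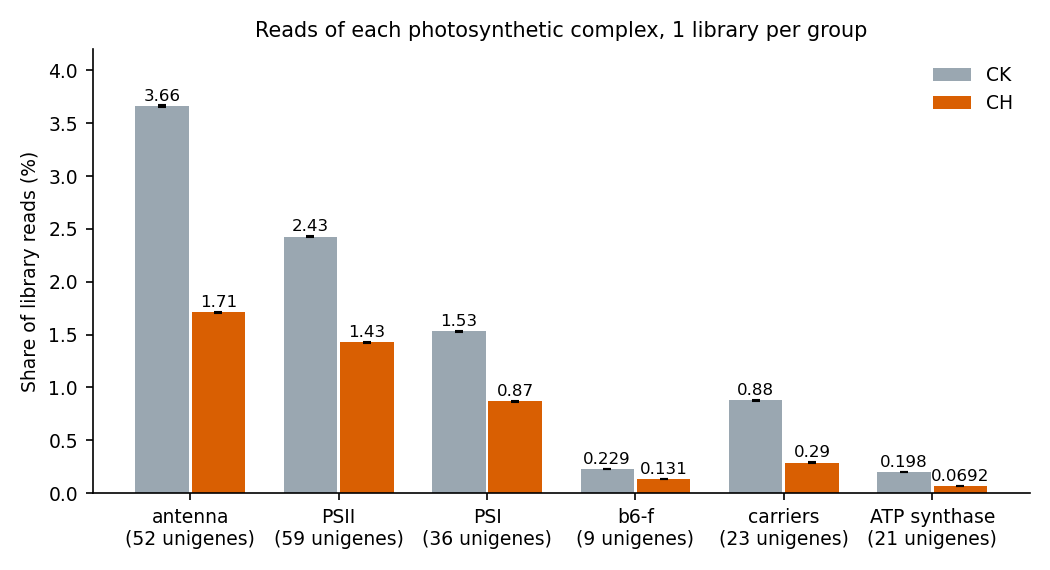
Share of library reads (%) taken by the unigenes of each complex in the CK and CH libraries, with exact 95% counting intervals that are barely visible at this depth. Antenna unigenes fell from 3.66% to 1.71% and carriers from 0.880% to 0.290%.

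The antenna was the group with most reads, and its PSII and PSI branches differed. The 28 LHCB unigenes took 2.80% of CK and 1.20% of CH reads, 2.34-fold lower (2.33 to 2.35), and 11 were called lower. The 24 LHCA unigenes took 0.861% and 0.516%, 1.67-fold lower (1.66 to 1.68), and 1 was called lower. These counting intervals do not overlap. Of those with a read, 40.7% of LHCB and 4.35% of LHCA unigenes were called lower, against a background of 4.28%. Summed over the antenna, the ratio was 2.14-fold lower, and it was 2.17-fold lower without comp35927_c2, the LHCB1 unigene with most reads.

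LHCB1, LHCB2 and LHCB3 form the trimeric LHCII antenna, the most abundant membrane protein of leaves. The main LHCB1 unigene, comp35927_c2, had 230,400 reads in CK and 167,133 in CH, or 13,901 and 6696 RPKM. Its log2 ratio of -1.05 passed the 2-fold line narrowly, and the call was lost when the libraries were scaled by the median of ratios. LHCB2 (comp28003_c0) went from 76,082 to 40,737 reads and from 4301 to 1515 RPKM, a log2 ratio of -1.51. LHCB3, known as the LHCII protein that does not form trimers alone, was carried by comp26307_c0 and comp26307_c1. These had 12,425 and 11,976 reads in CK and 4327 and 5239 in CH, with log2 ratios of -2.13 and -1.80. Both were among the most strongly lower antenna unigenes with many reads, and because they come from 1 assembly cluster their reads may be shared.

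The monomeric antenna proteins LHCB4, LHCB5 and LHCB6 (CP29, CP26 and CP24) link LHCII to the PSII core. LHCB4 (comp32293_c0) went from 71,239 to 51,925 reads, or 3392 to 1628 RPKM (log2 -1.06, a call also lost with the median of ratios). LHCB5 (comp16176_c0) went from 48,358 to 32,324 reads, or 1772 to 781 RPKM (log2 -1.18). LHCB6 (comp33666_c0) fell further, from 44,032 to 18,694 reads and from 2026 to 566 RPKM (log2 -1.84). LHCB7, a rarer relative, had 1669 and 955 reads (comp35704_c1, log2 -1.43). The summed ratios of the linker proteins differed between these libraries, at 3.56-fold for LHCB6, 2.07-fold for LHCB4 and 2.26-fold for LHCB5. With 1 library per group, whether this exceeds variation between plants was not tested.

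The other 7 LHCB1 unigenes did not move alike, and 3 of them were called lower. comp35392_c0 had 1173 reads in CK and 86 in CH, or 89.3 and 4.51 RPKM. Its share of reads was 20.6-fold lower (16.6 to 26.0), the steepest call among the members. comp33470_c0 had 916 and 206 reads, or 34.6 and 5.13 RPKM (log2 -2.76). Another, comp35392_c1, had 12 reads in CK and none in CH. With CH set to a floor of 3 reads this is 6.05-fold lower, without allowance for counting error. The log2 ratio of comp35927_c2 exceeded that of comp35392_c0 by 3.25 ± 0.32 and that of comp33470_c0 by 1.70 ± 0.22 (counting error, 95%). In contrast, comp35540_c1, with a best hit in Brassica, had 294 and 305 reads and was not called (log2 -0.54), its log2 ratio lying 0.51 ± 0.23 above that of the main unigene by counting error. The remaining 3 had at most 24 reads in a library and were not called.

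**Figure D2:**
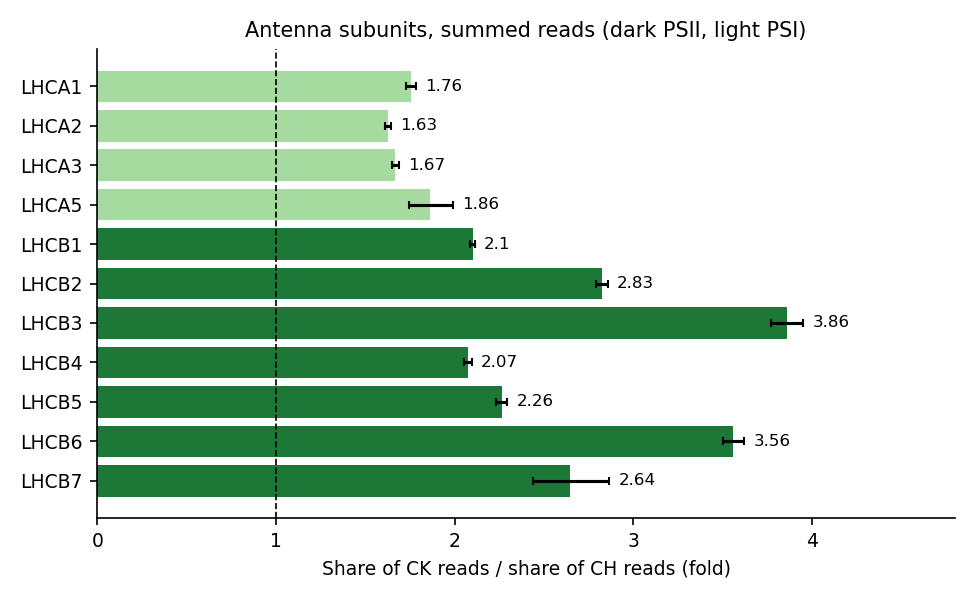
Fold by which the share of summed reads was lower in CH than in CK for each antenna subunit with at least 1000 CK reads, with exact 95% counting intervals (dashed line: no difference). All 4 LHCA subunits lie between 1.63 and 1.86, below all 7 LHCB subunits, which lie between 2.07 and 3.86.

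The main unigenes of the PSI antenna stayed above the 2-fold line. LHCA2 (comp30030_c0) had 66,769 reads in CK and 62,704 in CH, or 3001 and 1856 RPKM, a log2 ratio of -0.69. LHCA1 (comp35737_c1), LHCA3 (comp29842_c1) and LHCA5 (comp28722_c0) had log2 ratios of -0.82, -0.74 and -0.90 and were not called. The exception was a second LHCA2-named unigene, comp33214_c0, with 1021 and 321 reads, or 58.3 and 12.1 RPKM (log2 -2.27), whose KEGG text names Lhca6. Its log2 ratio was 1.58 ± 0.18 below that of comp30030_c0. LHCA4, usually a main PSI antenna protein, was represented by 4 unigenes with only 78 reads in CK and 116 in CH.

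Well-read PSII members ranged from a log2 ratio of 0.36 to 12.0-fold lower. The 59 unigenes took 2.43% of CK and 1.43% of CH reads, 1.70-fold lower (1.69 to 1.71), and 10 were called lower. The oxygen-evolving proteins moved by a modest factor: the 15 PSBO, PSBP and PSBQ unigenes were together 1.73-fold lower (1.72 to 1.74) with 1 call. That is 7.14% of those with a read, against a background of 4.28%. PSBO (comp32479_c0), which stabilises the manganese cluster, had 134,543 and 123,358 reads, or 4912 and 2968 RPKM (log2 -0.73, not called). PSBP (comp29876_c0) had 44,786 and 38,126 reads (log2 -0.84, not called). PSBQ (comp27932_c0) had 30,456 and 21,834 reads, or 1424 and 672 RPKM, and was called lower (log2 -1.08). PSBR (comp32606_c0), needed for stable binding of PSBP in Arabidopsis, had 94,932 and 110,430 reads, or 5981 and 4575 RPKM (log2 -0.39, not called).

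The largest PSII difference was in PSBS, the protein that senses lumen acidity and switches on the dissipation of excess light as heat. Its main unigene, comp27725_c0, had 20,802 reads in CK and 2624 in CH, or 1114 and 92.5 RPKM. This is 12.0-fold lower (11.5 to 12.5), against 1.70-fold for PSII as a whole. The other PSBS unigenes added only a few reads, 20,809 and 2638 in all.

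Small PSII subunits also differed among themselves. The nuclear-encoded 5 kDa protein PSBTn (comp26507_c0) had 15,845 and 5906 reads, or 1379 and 337 RPKM, and was lower by a log2 of -2.03. PSBW (comp39386_c0), found at the interface of PSII with LHCII in Arabidopsis, had 38,392 and 26,454 reads, or 2003 and 908 RPKM (log2 -1.14). PSBY (comp20327_c0) had 19,765 and 15,551 reads, or 942 and 488 RPKM (log2 -0.95, not called). Thus PSBTn was the lowest of these 3 relative to CK.

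Assembly factors and PsbP-like proteins, which help build or repair PSII and related complexes, had fewer reads. Over their 20 unigenes the share went from 0.0920% to 0.0395%, 2.33-fold lower (2.27 to 2.39), and 6 were called. PSB28 (comp25780_c0), an assembly factor, fell from 2962 to 843 reads and from 188 to 35.3 RPKM (log2 -2.42). PSB27 (comp29679_c0), which binds assembly intermediates, had 2227 and 1619 reads (log2 -1.06, a call lost with the median of ratios). HCF136 (comp36926_c1), needed early in PSII assembly, had 3240 and 2490 reads (log2 -0.98, not called). The called PsbP-like unigenes were comp16116_c0, comp20861_c0, comp29379_c1 and comp34996_c0, with log2 ratios from -1.84 to -1.15. A second PsbP-like protein 1 unigene, comp38992_c0, had 741 and 1123 reads and a log2 ratio of 0.02. The family was thus mixed: the log2 ratio of comp16116_c0 was 1.76 ± 0.18 below that of comp38992_c0.

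Among members with a mean of 50 CPM or more over both libraries, psbA was the only one with a higher RPKM in CH. CPM is reads per 1,000,000 reads of the library, with no division by length. It encodes D1, the plastid-encoded PSII core protein that is continually replaced under light. Its unigene comp39411_c0 had 13,385 reads in CK and 26,099 in CH, or 679 and 871 RPKM (log2 0.36), below the 2-fold line and therefore not called. The core antenna proteins psbB (comp20532_c0) and psbC (comp38515_c0) had 556 and 1752 reads in CK and 883 and 2024 in CH (log2 0.07 and -0.39), neither called. The small plastid-encoded subunits psbI (comp15553_c0, 20 and 38 reads), psbK (comp175968_c0, 27 and 18) and psbM (comp515254_c0, 3 and 10) had log2 ratios of 0.32, -1.20 and 1.15, and none was called.

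Photosystem I showed a similar split among peripheral subunits. Its 36 unigenes took 1.53% of CK and 0.870% of CH reads, 1.76-fold lower (1.75 to 1.77), with 6 calls. The stromal subunits that dock ferredoxin were not called. PSAE (comp35810_c0) had 54,429 and 79,495 reads, or 1228 and 1183 RPKM, a log2 ratio of -0.05 that became 0.024 with the median of ratios. PSAD (comp29308_c0) had 40,856 and 35,479 reads, or 1716 and 981 RPKM (log2 -0.81). Without comp35810_c0, the PSI sum was 2.13-fold lower.

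Of the other nuclear-encoded PSI subunits, PSAF, PSAG, PSAH, PSAK and PSAL each had 1 unigene called lower. PSAN had 3 unigenes with only 6 reads in CK and 7 in CH, and none was called. PSAF (comp35927_c1), the docking site of plastocyanin, had 47,812 and 30,219 reads, or 2499 and 1040 RPKM (log2 -1.27). It shares an assembly cluster with LHCB1, so some reads may be shared. PSAG (comp35139_c2) and PSAK (comp29829_c0), at the ends of the LHCA belt, had 33,903 and 29,997 reads in CK and 23,705 and 18,522 in CH, with log2 ratios of -1.12 and -1.30. PSAH (comp26477_c0), where LHCII docks during state transitions, had 18,363 and 11,003 reads, or 1361 and 536 RPKM (log2 -1.35). PSAL, its partner subunit, was carried by a called unigene, comp26709_c0, with 24,605 and 12,620 reads (log2 -1.57), and by comp20240_c1, with 21,295 and 22,013 reads (log2 -0.56, not called). The difference between these PSAL unigenes, 1.01 ± 0.04, exceeded counting error. Of the plastid-encoded PSI members, psaA (comp37415_c0), a reaction-centre protein, had 1085 and 1084 reads (log2 -0.60, not called), and the assembly factor ycf3 (comp22221_c1) had 35 and 22 and was called lower.

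The cytochrome b6-f complex passes electrons between the photosystems. Its 9 unigenes took 0.229% of CK and 0.131% of CH reads, 1.74-fold lower (1.72 to 1.77), with 2 calls. The Rieske iron-sulfur subunit PETC was carried by a pair of well-read unigenes that differed sharply. comp29469_c0 had 28,231 and 28,514 reads, or 1453 and 966 RPKM (log2 -0.59, not called). comp24846_c0 had 3707 and 337 reads, or 180 and 10.8 RPKM, 16.7-fold lower (14.9 to 18.7). The difference of their log2 ratios was 3.47 ± 0.16, and comp24846_c0 was also called under every alternative test. PETM (comp30207_c0), a small subunit, had 8666 and 6361 reads (log2 -1.04), and its call was lost under both other scalings. The plastid-encoded petG (comp17824_c0) had 51 and 43 reads (log2 -0.85, not called).

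The soluble carriers went from 0.880% to 0.290% of reads, 3.03-fold lower (3.01 to 3.06), with 5 of 23 called. Ferredoxin, the stromal iron-sulfur protein that receives electrons from PSI, accounted for much of this. The ferredoxin-1 unigene comp37790_c0 had 56,100 reads in CK and 11,437 in CH, or 3017 and 401 RPKM. Its share of reads was 7.42-fold lower (7.28 to 7.57). In read rank over all unigenes it moved from 22 in CK to 284 in CH. Without it, the carriers were 2.28-fold lower, so their place as the group with the largest summed ratio, ahead of the ATP synthase at 2.86-fold, rests on this unigene. The less read ferredoxins comp30621_c1 and comp30621_c0, of 1 assembly cluster, had 168 and 147 reads in CK and 17 and 24 in CH (log2 -3.91 and -3.20), and were also called lower.

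Other ferredoxin unigenes were not called. comp20297_c0, with 20,846 and 16,662 reads (log2 -0.92), is named ferredoxin-1, but its 2213-base sequence has a hydrolase as best hit in Nr. comp29198_c0 had 937 and 839 reads (log2 -0.77). Ferredoxin-3, a form known from non-green tissue in maize, had a higher CPM in CH: comp25521_c0 had 497 and 1048 reads, or 38.5 and 53.4 RPKM (log2 0.47), and comp29866_c1 had 124 and 281 reads (log2 0.57). Neither reached 2-fold. Of the 6 other ferredoxin unigenes with at least 10 reads, 5 had a log2 ratio below 0, and comp17806_c0, with 13 and 30 reads, had 0.59 and was not called.

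Ferredoxin-NADP reductase, which makes NADPH, was measured under both isozyme names. The leaf-type unigene comp32501_c1 had 26,807 and 11,905 reads, or 1019 and 298 RPKM (log2 -1.77, called lower). The root-type unigene comp28384_c0 had 696 and 953 reads, or 25.3 and 22.8 RPKM (log2 -0.15, not called). Plastocyanin, the copper protein that feeds PSI, was called lower in comp30069_c0, with 50,175 and 34,802 reads, or 828 and 379 RPKM (log2 -1.13). That unigene is 3498 bases long and its best hit in Nr is an N-acetylglucosaminyltransferase, so its name is uncertain.

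**Figure D3:**
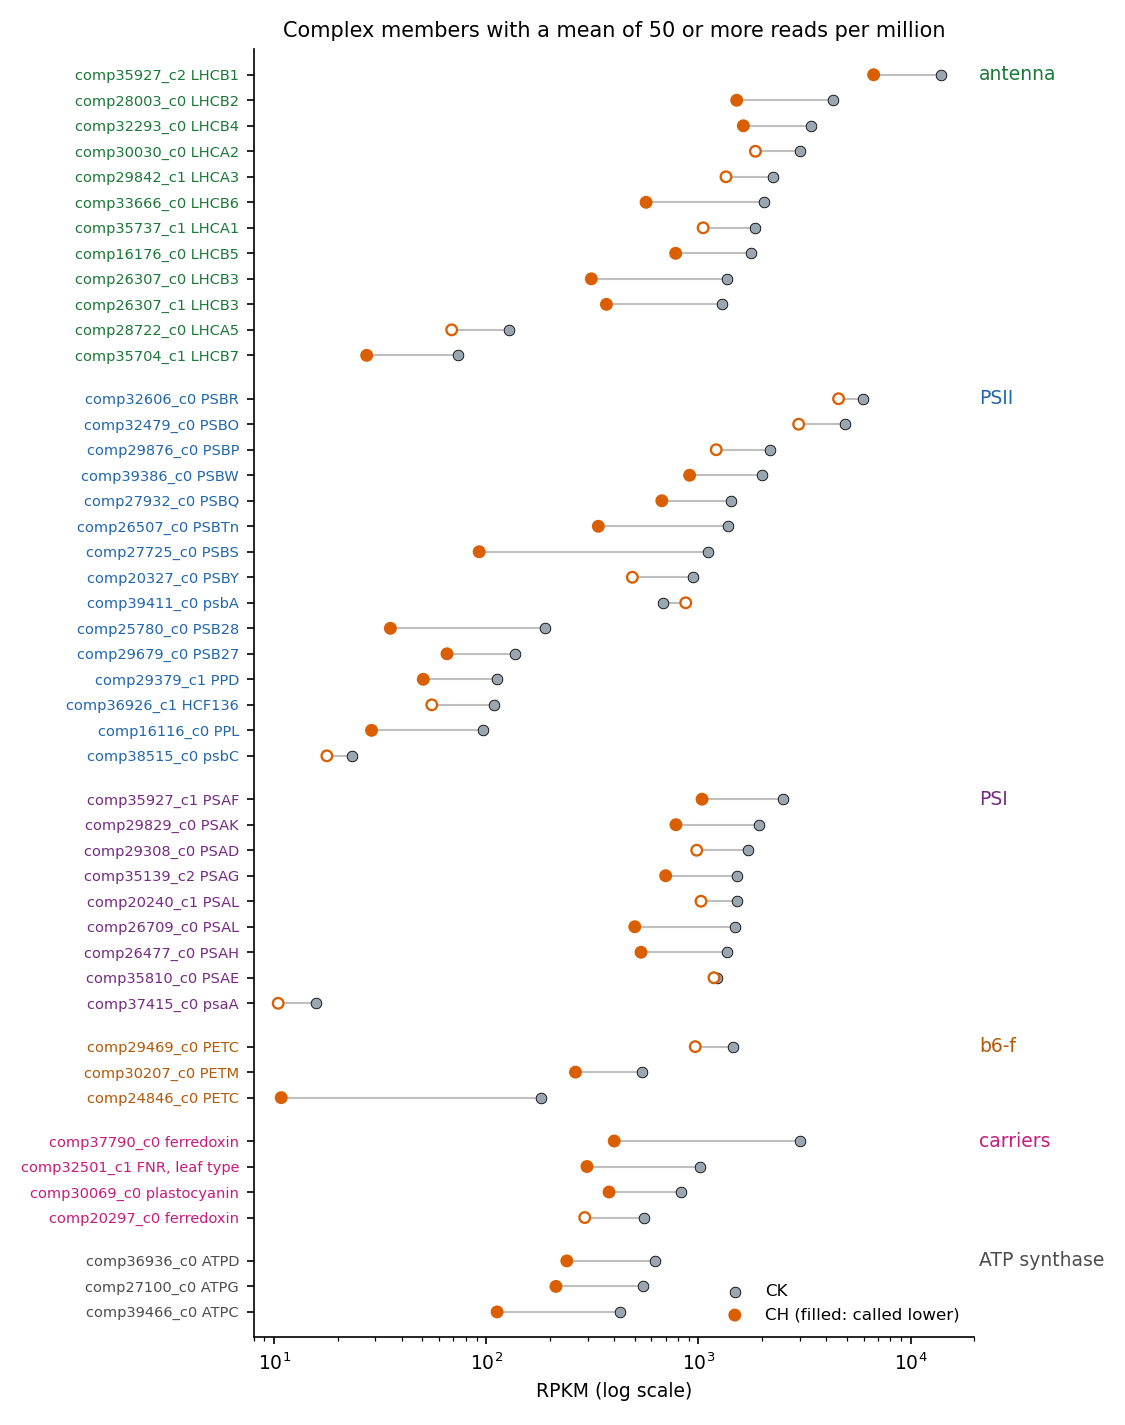
RPKM (log axis) in CK (grey) and CH (orange, filled where called lower, open where not called) of the complex members with a mean of 50 CPM or more, grouped by complex. PSBS, the PETC unigene comp24846_c0 and ferredoxin comp37790_c0 show the longest falls, and psbA is the only unigene with CH to the right of CK.

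The main unigenes of 3 nuclear-encoded subunits of the chloroplast ATP synthase were called lower. The 21 unigenes took 0.198% of CK and 0.0692% of CH reads, 2.86-fold lower (2.81 to 2.91), with 4 calls. The gamma subunit ATPC, the rotating shaft that carries the redox switch of the enzyme, had 15,366 and 6137 reads in comp39466_c0, or 427 and 112 RPKM (log2 -1.92). ATPG (comp27100_c0), the b' subunit of the stator, had 10,310 and 6085 reads, or 548 and 213 RPKM (log2 -1.36). ATPD, the delta subunit on top of the head, had 7776 and 4537 reads in comp36936_c0 (log2 -1.38) and 505 and 123 reads in comp33770_c0 (log2 -2.64). A second gamma unigene, comp36894_c2, had 325 and 721 reads, or 15.8 and 22.9 RPKM (log2 0.54, not called), 2.46 ± 0.19 above comp39466_c0. Plastid-encoded atpA (comp35142_c0), atpB (comp23924_c0) and atpH (comp24155_c0) had log2 ratios of -0.57, -0.41 and -0.71 and were not called.

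Across all complexes, nuclear-encoded and plastid-encoded members were set side by side. The 180 nuclear-encoded unigenes took 8.84% of CK and 4.40% of CH reads, 2.01-fold lower (2.01 to 2.02), with 39 calls. The 23 plastid-encoded ones took 0.101% and 0.116%, with 1 call. Of those with a read, 22.7% of nuclear-encoded and 4.35% of plastid-encoded unigenes were called lower, against a background of 4.28%. The plastid sum rested on psbA: without it, 21 unigenes had 4554 and 5215 reads, 1.32-fold lower (1.27 to 1.38). The median log2 ratios were -0.61 over 126 nuclear-encoded and -0.57 over 18 plastid-encoded members with at least 10 reads. These medians lay close, but they weigh thinly read unigenes the same as well-read ones. Over the 47 members of either origin with a mean of 50 CPM or more, the median was -1.12. The plastid-encoded members at that level, psbA, psbC and psaA, had log2 ratios of 0.36, -0.39 and -0.60 and were not called. The libraries were made from mRNA bound to oligo(dT), which captures plastid mRNA only in part, and the part of this in the plastid values was not tested.

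The calls lay mostly among well-read members. Of the 47 members with a mean of 50 CPM or more over both libraries, 46 had a lower RPKM in CH and 29 were called lower, against a background of 7.20% of the 4056 unigenes at that level. Their median log2 ratio was -1.12, compared with 0.07 for all unigenes at that level. At 500 CPM or more, 18 of 31 members and 29 of the 200 other unigenes were called lower, with medians of -1.08 and 0.19. Between 5 and 50 CPM, 7 of 22 members were called lower against a background of 8.85%, with a median of -0.56 compared with -0.01 for all unigenes at that level.

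Most members were thinly read. Of the 134 members with a mean under 5 CPM, 4 were called lower, near the background of 2.72% of unigenes at that level, and their median log2 ratio was -0.28, compared with -0.07 for all unigenes there. A best Nr hit in Brassicaceae or Solanaceae was found for 106 of them. Those 106 had 990 reads in CK and 1279 in CH, 1.17-fold lower (1.08 to 1.27), whereas the 28 others had 570 and 434 reads, 1.99-fold lower (1.75 to 2.26). Of 43 subunits with a well-read unigene, 39 also had a unigene under 5 CPM, which held a median of 0.0692% (highest 2.10%) of that subunit's CK reads. Best-hit genera were also matched to a working list of seed plant genera. Only 4 members had no genus on it, with no read in CK and 8 in CH. The list was incomplete, so lacking a match does not mean that the best hit was outside seed plants. A best hit does not give the organism of a transcript, and the origin of these thinly read unigenes was not tested.

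**Figure D4:**
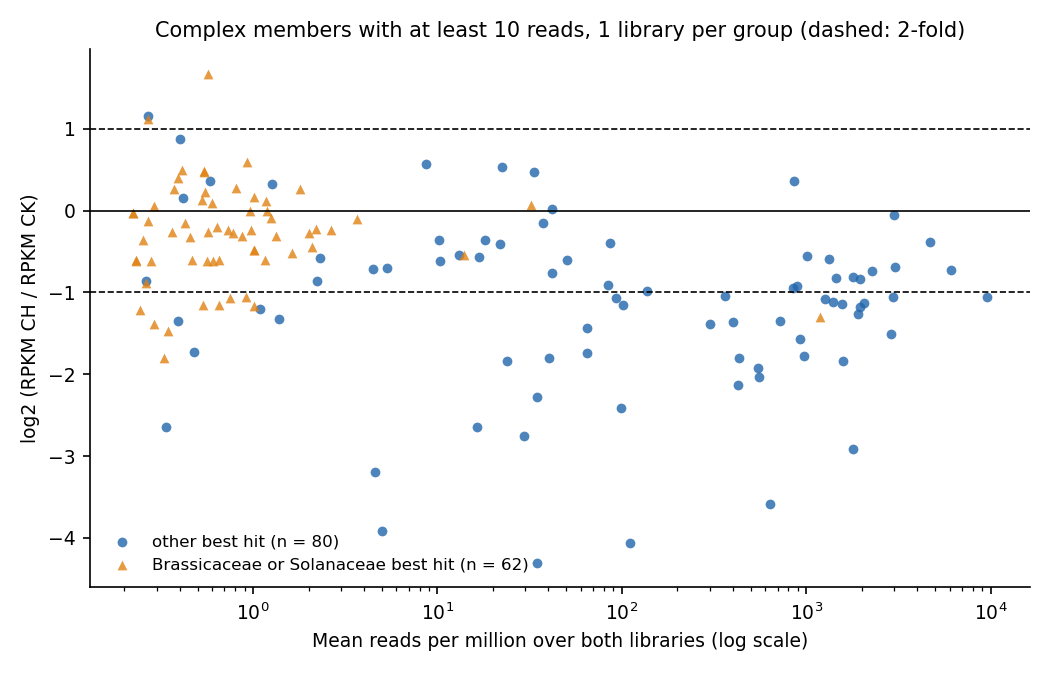
Log2 RPKM ratio (CH over CK) against mean CPM (log axis) for the 142 complex members with at least 10 reads, 62 of them with a Brassicaceae or Solanaceae best hit (triangles). Triangles gather at the left near 0, and most points above 50 CPM lie near or below the lower dashed 2-fold line.

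Of the 3 members outside the complexes, sulfite reductase comp35190_c0, which draws electrons from ferredoxin, had 2863 and 4311 reads (log2 -0.01, not called). Phytochromobilin synthase, comp30203_c0, had 68 and 52 reads and was called lower (log2 -1.03), a call lost under both other scalings.

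Neighbouring photosynthesis lists held lower calls and no higher call. The backgrounds over all unigenes tested were 4.28% lower and 2.48% higher. The mitochondrial ATP synthase list held higher calls only, none of them in a unigene with a genus on the seed plant list. The chloroplast NDH complex, which cycles electrons around PSI, had 2 of 12 unigenes lower and none higher (median log2 -0.82). Thylakoid regulators and proteases had 9 of 64 lower and none higher (median -0.41), among them PGR5 (comp26148_c0, 5017 and 2453 reads, log2 -1.64), which acts in cyclic electron flow. The kinase STN7 (comp37583_c0), which phosphorylates LHCII, had 15,253 and 25,254 reads and was not called (log2 0.13).

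Enzymes of the Calvin cycle had 11 of 64 lower and none higher (median -0.72), their share going from 5.08% to 1.71%. The main rubisco small chain unigene, comp20267_c0, had 255,350 and 89,953 reads (log2 -2.11). Chlorophyll synthesis had 5 of 40 lower and none higher (median -0.56), including magnesium chelatase subunit ChlH (comp38929_c0, 25,583 and 14,973 reads, log2 -1.37).

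Of the 34 mitochondrial ATP synthase unigenes, 0 were lower and 7 higher (median 0.70). The 7 were all among the 20 unigenes without a genus on the seed plant list. Those 20 had 19 reads in CK and 347 in CH. They include best hits in the seed plants Gagea, Eleutherococcus, Ananas and Genlisea, none of which was among the 7. The 14 with a genus on the list had 11,102 and 16,002 reads, no call and a median log2 ratio of -0.03.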

How the data were processed

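Each library held RNA of leaves pooled over 4 times and 5 plants per time. From a joint Trinity assembly of both libraries, the authors deposited, per library, an expected count (estimated fragments, not normalized), an RPKM and a TPM for each unigene. For mapping and counting, the program is not given in the sources consulted. The submitters' processing notes name DESeq without a version. TPM was not used. RPKM as deposited is the expected count per kilobase of effective length, scaled to the library total.

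Expected counts were rounded to whole reads. Counts were compared with a 2-sided Audic-Claverie test, adjusted by Benjamini-Hochberg over all unigenes with at least 1 read, with a call at adjusted p below 0.01 and a 2-fold RPKM ratio. Unigenes at 0 reads were set to a floor of 3 reads in log2 ratios. Read shares carry 95% exact Clopper-Pearson intervals. Analyses were run in Python 3.11.15 (scipy 1.17.1) and edgeR 4.0.16 in R 4.3.3. The Audic-Claverie calls and the ratio intervals were tested on simulated data. The limits required there applied only to simulations with counting error alone.

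Calls were repeated with edgeR's exact test at 3 dispersions, an exact binomial test, TMM or median-of-ratios scaling, read filters, 4-fold and adjusted p 0.001 thresholds, pseudocounts, and subsets by best hit. edgeR's quasi-likelihood test needs replicates and could not be run. In each complex the text names the 4 members with most CK reads and up to 3 called lower and 3 called higher by the interval bound farthest from 1. Any further member or gene was singled out with its values in view. The members, the lists (antenna and complexes, NDH complex, thylakoid factors, Calvin cycle, chlorophyll synthesis, mitochondrial ATP synthase, cell type markers) and the read-level classes were chosen with earlier results of these data known. Complex, subunit and plastid or nuclear origin were assigned from the Swiss-Prot and KEGG text. Columns of text annotation served for names only. No sequence is shown, as the tables used hold none.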

Additional observations from a re-analysis of the deposited data

How the results depend on the processing

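No paired analysis was possible because each group is 1 library, and for the same reason no replicate could be left out. Of the 40 members lower in CH, 20, 2 and 6 stayed lower in edgeR with a coefficient of variation of 0.2, of 0.4 and a dispersion blind to the groups, and 13 at 4-fold. In that order the counts were 6, 1, 1 and 5 for the antenna, 6, 0, 1 and 3 for PSII, 1, 0, 0 and 0 for PSI, 1, 1, 1 and 1 for b6-f, and 2, 0, 0 and 1 for the ATP synthase. For the carriers, 0 stayed with 0.4, 3 with the blind dispersion and 3 at 4-fold. Under TMM and under the median of ratios, 1 b6-f member stayed lower. Of the 26 named members called, 25 kept the call under TMM and 23 under the median of ratios, which raise every log2 ratio by 0.05 and 0.08, and all 26 kept it in the exact binomial test, with either read filter, at adjusted p 0.001 and with either pseudocount. PSAE (comp35810_c0) changed sign, to a log2 ratio of 0.024, with the median of ratios.

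The CH to CK ratio of summed reads moved with TMM and the median of ratios to 0.524 and 0.533 for all members, 0.485 and 0.493 for the antenna, 0.610 and 0.621 for PSII, 0.590 and 0.600 for PSI, 0.595 and 0.605 for b6-f, 0.342 and 0.348 for carriers, and 0.362 and 0.369 for the ATP synthase. The median log2 ratio of members was -0.48 with a pseudocount of 1. Without Brassicaceae and Solanaceae best hits, an alternative chosen after seeing the data, it was -1.04, with -1.31 for the antenna and -0.89 for PSII. Counts and medians under the remaining alternatives stayed within the limits set. With 1 library per group, depth limits the thinly read members only, and variation between plants sets an unknown limit for all others.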
